A study of Mus musculus with 4 samples.

Results

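The gene set described here consists of the histone genes and replacement variant histone genes that the count files list under symbols beginning with Hist1 to Hist4, H1f, H2af, H3f3 or Hils1. Members were the rows whose symbol begins with one of these and does not hold the pseudogene mark "-ps". The rule found 25 of the 54920 listed genes, and 4 further rows matched the pattern but carried that mark. Of the 25 members, 14 were classed as replication-dependent, 6 were replacement variants, 4 were linker histones of germ cells and 1, H3f3aos, was a non-coding antisense gene. The replication-dependent members lie in the histone clusters except Hist1h2al. It is annotated as a processed pseudogene and lies away from the others, on chr13:51202727-51203065. The files mix nomenclatures: the cluster linker members carry the newer symbols H1f1 to H1f5, a few core members keep older ones such as Hist1h2bp, and most core histone genes appear under newer symbols outside the rule, such as H2bc6 or H3c7. A further 64 histone genes outside the rule, for which the RefSeq gene table gives an older symbol that matches it, were used for comparison.

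The series compared ID4-EGFP+ spermatogonia, sorted by flow cytometry from the testes of mice at postnatal day 8, with and without deletion of Cnot3, a subunit of the CCR4-NOT deadenylase complex that shortens the poly(A) tails of mRNAs. Both groups carried floxed Cnot3 alleles (Cnot3 flox/flox) and the Id4-eGfp reporter, and all mice received 4-OHT by injection from day 1 to day 3. The Cnot3-cKO mice also carried Ddx4-creER, an inducible Cre recombinase under a germ cell promoter, and the controls, labelled wild-type, did not. There were 2 control and 2 Cnot3-cKO libraries, made from total RNA with a stranded kit. The strain background, and whether a library came from 1 animal or a pool, are not given in the sources used here, so p-values measure only the spread between these libraries.

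Replication-dependent histone genes supply the H1, H2A, H2B, H3 and H4 proteins that package newly copied DNA, and their transcription and mRNA stability rise in S phase. Their mRNAs are the animal mRNAs known to end without a poly(A) tail: a conserved stem-loop, bound by the protein SLBP, takes its place. Replacement variants such as H3.3, from H3f3a and H3f3b, and the linker histone H1.0, from H1f0, are made throughout the cell cycle from polyadenylated mRNAs. Germ cells add linker histones of their own, among them H1t, encoded by H1f6.

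The libraries held 40957899 and 43378493 counted reads in the controls and 22192964 and 28019626 in the Cnot3-cKO. Cnot3 had 58.6 and 50.2 CPM (counts scaled to library size with TMM factors) in the controls against 19.2 and 19.9 in the Cnot3-cKO, a log2 fold change of -1.48 ± 0.13 (SE). Of 23952 genes that passed the expression filter, 4.03% were called higher and 0.735% lower in the Cnot3-cKO, where called means an adjusted p below 0.01 in the edgeR quasi-likelihood test with Benjamini-Hochberg adjustment and a fold change above 2. Without the limit on the fold, 6.21% passed as higher and 4.7% as lower. An unadjusted edgeR p below 0.05 was common as well, since a p of 0.0504 (H1f0) became 0.153 after adjustment. A large part of all tested genes therefore lay below 0.05, and their share was not counted. The values of the groups did not overlap for many tested genes: the Cnot3-cKO values were the higher in 30.5% and the lower in 28.6%. Of the 25 members, 18 passed the filter and 7 did not.

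The mRNA ends that distinguish the classes can be seen in the transcripts of some members. The stem-loop was searched as a stem of 6 paired bases and a loop of 4 bases. The first arm of the stem had to begin with GG and end in T, and the loop to begin with TT. The copies in these transcripts are shown with 5 bases on either side, since this end sets the tail-less mRNAs apart. Capitals mark the stem and loop.
H1f2: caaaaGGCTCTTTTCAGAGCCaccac
H1f3: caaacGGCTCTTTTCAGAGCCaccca
H1f4: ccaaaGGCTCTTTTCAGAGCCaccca
H1f6: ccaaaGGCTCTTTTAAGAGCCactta
Hist1h2bp: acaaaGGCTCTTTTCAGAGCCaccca
Hist1h4n: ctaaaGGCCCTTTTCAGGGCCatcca
These came from the GENCODE M21 transcript sequences, in which 0.156% of 58797 protein-coding transcripts hold such a match. Hist1h4m, Hist1h2ao and Hist1h2ap also held it. H1f2, H1f3, H1f4 and Hist1h2bp had identical stem-loops, whereas H1f6 had another base in the loop and Hist1h4n another pair in the stem. No match lay in the transcripts of H3f3a, H3f3b, H1f0 or H1f10. The class does not decide it alone, since H2ax, counted with the variants outside the rule, held a match. The annotated transcripts of the replication-dependent genes H1f1, H1f5, Hist1h2bq, Hist1h2br, Hist1h2an and Hist1h2al held none either. This says only that the pattern is not within the annotated ends.

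Among the replication-dependent linker histone genes, which encode the H1 proteins that bind between nucleosomes, H1f4 and H1f5 rose in the Cnot3-cKO. H1f4, on chr13:23620629-23622558 (mm10, minus strand), had 24.7 and 31.9 CPM in the controls and 81.4 and 102 CPM in the Cnot3-cKO. Its log2 fold change was 1.69 ± 0.14 (SE), with an edgeR adjusted p of 1.22e-05. H1f5, on chr13:21779883-21780625 (minus strand), had 12.4 and 12.6 CPM in the controls and 36.7 and 37.6 CPM in the Cnot3-cKO, a log2 fold change of 1.57 ± 0.14 (SE, edgeR adjusted p = 1.43e-05). For both genes each Cnot3-cKO library lay well above each control library. H1f5 also differed little between the libraries of a group. Leaving out any 1 library kept the log2 fold change of H1f4 between 1.51 and 1.88 and that of H1f5 between 1.54 and 1.58. In the M21 gene models, no stretch of 50 bases of H1f5 recurs in another gene, while 32.0% of those of H1f4 do, H2bc6 being the gene that shares the most.

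Sertoli cell markers moved in the same direction as these genes. The summed level of 12 Sertoli markers was 389 and 399.8 CPM in the controls and 1197 and 1176 CPM in the Cnot3-cKO, and 11 of the 12 were called higher. All 9 macrophage markers were called higher too, with sums of 189 to 295 CPM in the controls and 534 to 653 CPM in the Cnot3-cKO, as were 4 of 5 tested Leydig cell markers (322 to 368 against 831 to 896 CPM). Insl3, the Leydig cell hormone, had no read in any library, and every other Sertoli, macrophage and Leydig cell marker had reads in each. Their part in the higher H1f4 and H1f5 was not tested, and in bulk RNA fewer cells of a type and less RNA per cell cannot be told apart. None of the 8 pan-germ cell markers was called, with sums of 4099 and 4485 CPM against 3895 and 4110 CPM. The sorted cell type was visible in its markers: 9 genes of undifferentiated spermatogonia summed to 1580 and 1458 CPM in the controls and 1208 and 1238 CPM in the Cnot3-cKO. The fall of the sum was not shared by all of them: Id4 and Eomes were called higher and Lin28a lower. Without the fold limit 4 passed as higher and 3 as lower, and their median log2 fold change was 0.15. Genes of differentiating spermatogonia summed to 592 and 700.3 against 358 and 395 CPM, with 3 of 5 called lower. Of the endothelial markers 2 of 4 tested were called higher, and of the peritubular myoid markers none of 5.

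The other linker genes of the clusters had smaller fold changes. H1f3 had 25.4 and 43.5 CPM in the controls and 55.0 and 77.8 CPM in the Cnot3-cKO. Its log2 fold change of 0.95 ± 0.21 (SE) passed the test (edgeR adjusted p = 0.00776) but not the fold limit, and the groups did not overlap. In DESeq2 its adjusted p was 0.123. H1f2 had 49.6 and 98.7 CPM against 73.3 and 97.7 CPM, so that the groups overlapped, with a log2 fold change of 0.21 ± 0.23 (SE, edgeR adjusted p = 0.605). H1f1 lay below both controls: it had 718 and 1138 CPM in the controls and 621 and 622 CPM in the Cnot3-cKO. Its log2 fold change of -0.58 ± 0.15 (SE) did not pass (edgeR adjusted p = 0.0173). The control libraries differed from each other by more than the lower control differed from the Cnot3-cKO, and without control replicate 2 the log2 fold change was -0.22. Within this family, H1f4 and H1f5 were therefore called, while H1f1 had the opposite sign.

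**Figure D1:**
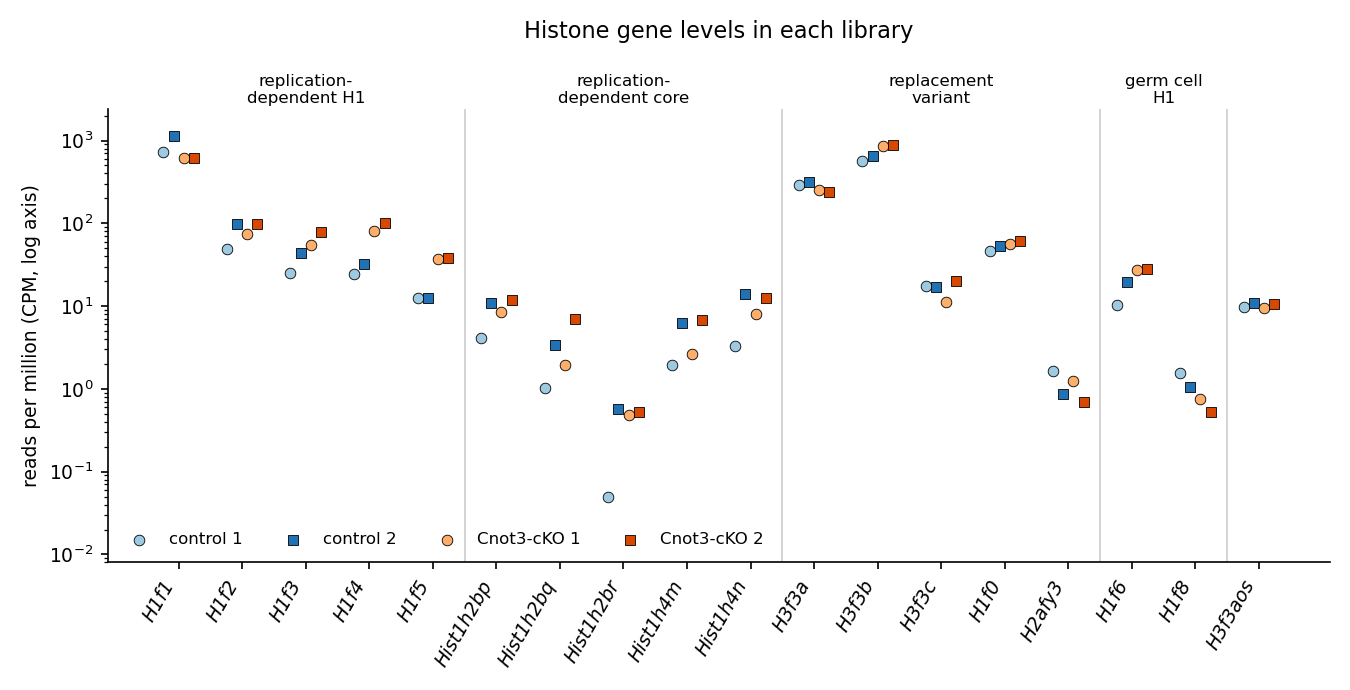
Level of each tested member in each of the 4 libraries, in CPM on a log axis, with circles for replicate 1 and squares for replicate 2. H1f4 and H1f5 lie higher in the Cnot3-cKO, while among the core genes replicate 2 lies above replicate 1 in both groups.

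The start sites of these genes can be compared base by base. The 130 bases before the RefSeq start (GRCm38.p6) are shown for the called genes H1f4 and H1f5, for H1f2, which was not called, and for H1f1, which had the opposite sign. Capitals mark matches on either strand to the letters AAACACA (known as the H1 box), CCAAT (also read as ATTGG on the other strand) and TATAAA. No match overlaps another.
H1f1, chr13:23763538-23763667 (plus strand): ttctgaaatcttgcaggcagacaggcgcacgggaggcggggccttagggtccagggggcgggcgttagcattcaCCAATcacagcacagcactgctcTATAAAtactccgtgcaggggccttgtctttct
H1f2, chr13:23738677-23738806 (plus strand): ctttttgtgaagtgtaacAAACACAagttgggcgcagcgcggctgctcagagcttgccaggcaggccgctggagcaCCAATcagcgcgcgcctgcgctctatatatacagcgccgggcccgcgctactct
H1f4, chr13:23622559-23622688 (minus strand): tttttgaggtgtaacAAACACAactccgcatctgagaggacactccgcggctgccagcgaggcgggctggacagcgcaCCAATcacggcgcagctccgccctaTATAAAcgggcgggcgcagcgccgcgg
H1f5, chr13:21780626-21780755 (minus strand): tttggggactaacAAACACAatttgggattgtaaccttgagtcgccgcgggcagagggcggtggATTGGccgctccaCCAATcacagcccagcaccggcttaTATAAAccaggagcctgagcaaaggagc
AAACACA began at position -112 in H1f2, -115 in H1f4 and -117 in H1f5, and also at -122 in H1f3 and -114 in H1f6. In H3f3a it began at -181, on the other strand. Each promoter was searched from 250 bases before to 50 after the start, a longer window than the stretch shown, and that of H1f1 did not hold these letters. All of H1f1 to H1f6 held CCAAT between -66 and -51. Among 32851 promoters searched over the same window, 7.2% held AAACACA, 37.4% CCAAT and 13.6% TATAAA. Members with different directions shared these letters, and 14 of the 25 members had a promoter in the table.

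The linker histone transcripts stood in other proportions in the Cnot3-cKO libraries. Levels per kilobase, from the RefSeq gene lengths, were summed over H1f1 to H1f6 and H1f0, and each gene was expressed as its share. H1f1 made up 84.1% and 83.7% of this sum in the controls but 68.5% and 63.7% in the Cnot3-cKO. H1f4 went the other way, with shares of 2.75% and 2.23% against 8.55% and 9.90%. H1f5 had 1.36% and 0.872% in the controls and 3.80% and 3.61% in the Cnot3-cKO. The groups did not overlap in the share of any gene of this sum. Shares of a library add up to the whole, so a lower share of H1f1 goes with higher shares of the others. H1f2, whose CPM overlapped between the groups, had 5.97% and 7.46% against 8.30% and 10.3%. The shares are not affected by the scaling between libraries. They do depend on the lengths, since some M21 models are longer than those of RefSeq. As shares of the reads, not divided by length, H1f1 had 81.0% and 81.4% in the controls and 65.3% and 60.6% in the Cnot3-cKO. H1f1 had the highest share in every library by either measure.

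**Figure D2:**
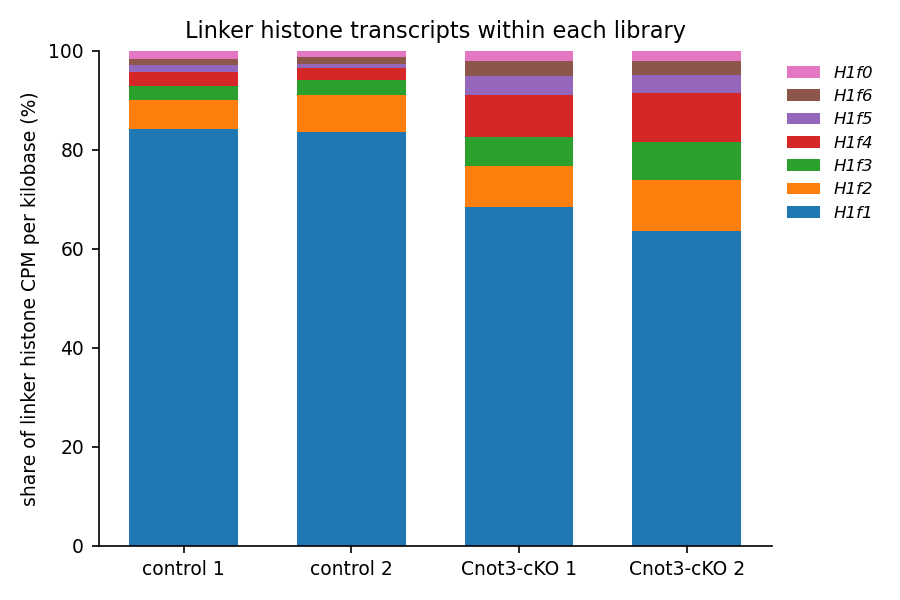
Share of each linker histone gene (%) in the summed CPM per kilobase of 7 linker histone genes, one stacked bar for each library. H1f1 takes 84.1% and 83.7% in the controls against 68.5% and 63.7% in the Cnot3-cKO, and H1f4 takes 2.75% and 2.23% against 8.55% and 9.90%.

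None of the core histone genes among the members was called in edgeR or DESeq2, and none of the 5 tested had an unadjusted p below 0.05. These counts hold with all libraries in the fit: without control replicate 2, 4 of the 5 were called higher, Hist1h2bp and Hist1h4m at a log2 fold change of 1.29, Hist1h4n at 1.65 and Hist1h2bq at 2.13, and Hist1h2bq was also called without Cnot3-cKO replicate 1 (1.64). The tested ones lie together on chromosome 13 and share much of their sequence: between 44.1% and 97.3% of the 50-base stretches of the 5 tested genes recur in other genes. How the authors treated reads that map to several places is not given in the sources used here, so single values are uncertain. Hist1h2bp, an H2B gene, had 4.15 and 10.9 CPM in the controls and 8.43 and 11.9 CPM in the Cnot3-cKO. Hist1h4n, an H4 gene, had 3.25 and 14.0 CPM against 8.12 and 12.4 CPM. In each of the 5 tested core genes the groups overlapped. The log2 fold changes ran from 0.22 for Hist1h4m to 1.03 for Hist1h2bq, with standard errors of 0.35 to 0.90. The H2B genes Hist1h2bq and Hist1h2br, which share nearly all of their sequence, had 1.02 and 3.38 against 1.94 and 6.95 CPM, and 0.0497 and 0.570 against 0.486 and 0.524 CPM. The H2A members Hist1h2an, Hist1h2ao, Hist1h2ap and the processed pseudogene Hist1h2al had at most 3 reads in any library and were not tested.

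The libraries of a group differed in these genes. Replicate 2 was above replicate 1 for 10 of 10 tested replication-dependent members in the controls and again for 10 of 10 in the Cnot3-cKO. The median log2 difference was 1.18 in the controls and 0.46 in the Cnot3-cKO, against -0.02 and 0.00 over all tested genes. The core genes differed the most, with medians of 1.65 and 0.61, and the cluster linker genes had 0.66 and 0.32. The replacement variants had 0.15 and 0.02. The comparison genes outside the rule had the same property: for 32 of 36 tested replication-dependent genes replicate 2 was higher in both groups, and their medians were 1.27 and 0.57. Whether libraries with the same replicate number were prepared together is not given in the sources used here, and the cause of the difference was not tested. It bears on the calls. Without control replicate 2, in which these genes were high, 7 replication-dependent members were called higher in place of 2, those gained being H1f3 and 4 core genes. Without Cnot3-cKO replicate 1, in which they were low, 4 were called, those gained being H1f3 and Hist1h2bq.

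**Figure D3:**
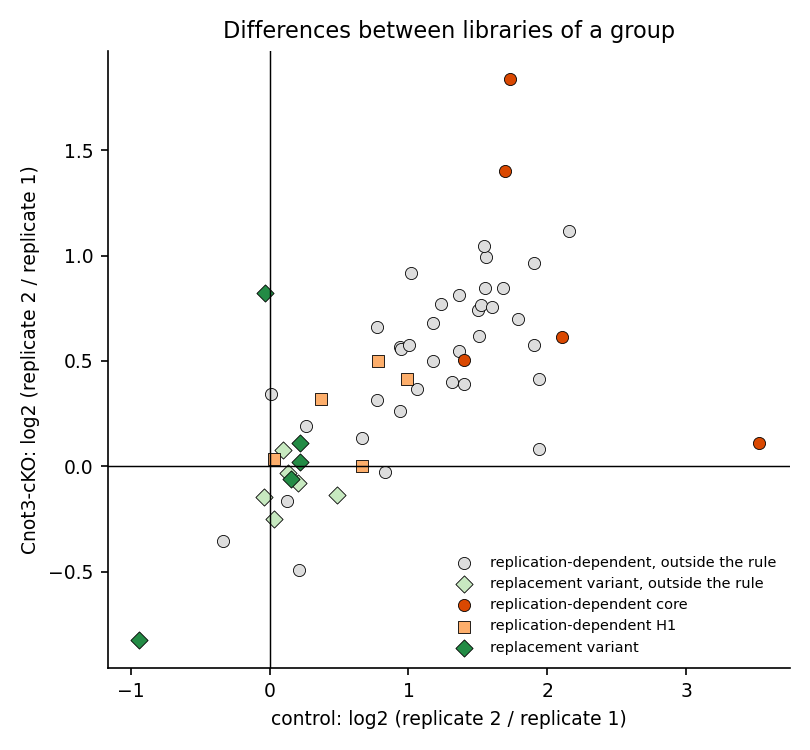
Log2 ratio of replicate 2 to replicate 1 in the controls (x axis) and in the Cnot3-cKO (y axis), one point for each tested histone gene. Replication-dependent genes lie mostly in the upper right, with medians of 1.18 and 0.46 for the members, while most replacement variants lie near the origin.

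Of the replacement variants, the H3.3 genes had log2 fold changes of opposite sign. H3f3b had 565 and 656 CPM in the controls and 869 and 882 CPM in the Cnot3-cKO, and its log2 fold change of 0.52 ± 0.08 (SE) passed the test but not the fold limit (edgeR adjusted p = 0.00106). H3f3a had 288 and 320 CPM in the controls and 251 and 240 CPM in the Cnot3-cKO, with a log2 fold change of -0.31 ± 0.08 (SE) that did not pass (edgeR adjusted p = 0.0221). Both genes encode the same H3.3 protein. In neither did the groups overlap, and leaving out any 1 library kept both directions. Within a library the ratio of H3f3a to H3f3b reads was 0.510 and 0.487 in the controls and 0.288 and 0.273 in the Cnot3-cKO. Their sum was 852 and 976 CPM against 1120 and 1122 CPM. H3f3a shares 27.1% and H3f3b 6.9% of its 50-base stretches with other genes.

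**Figure D4:**
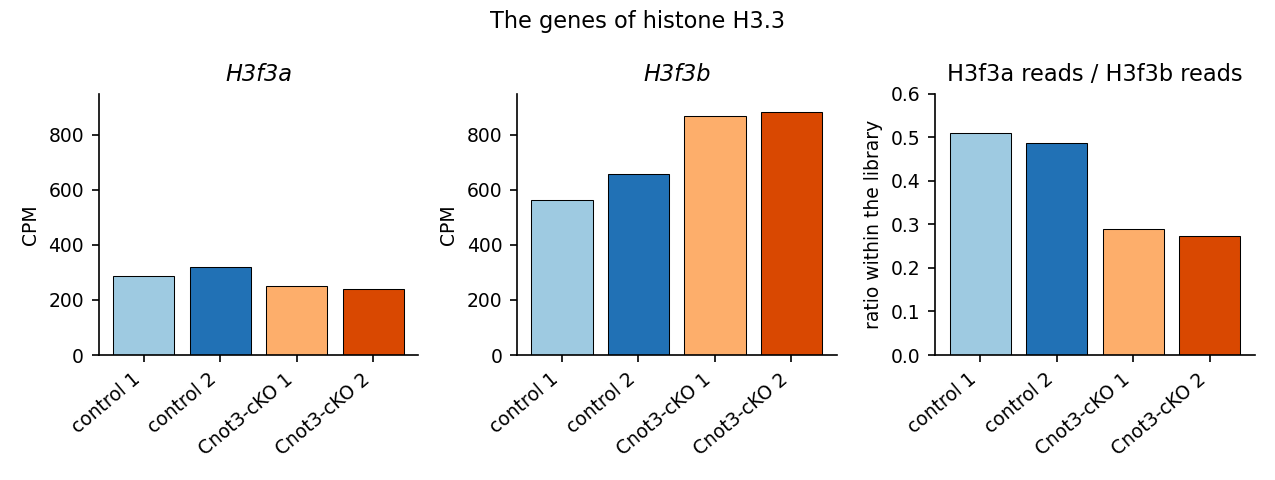
CPM of H3f3a and H3f3b, and the ratio of their reads, as 1 bar for each library. H3f3b is higher and H3f3a lower in both Cnot3-cKO libraries, and the ratio is 0.510 and 0.487 in the controls against 0.288 and 0.273.

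The other variants did not pass the test. H1f0 had 45.8 and 53.3 CPM in the controls against 56.5 and 61.1 CPM in the Cnot3-cKO, a log2 fold change of 0.25 ± 0.11 (SE, edgeR adjusted p = 0.153). H3f3c and H2afy3, annotated as processed pseudogenes, had log2 fold changes of -0.14 and -0.38. H3f3c shares 73.8% of its 50-base stretches with other genes, H3f3a the most often, and within these stretches the reads of the genes cannot be told apart. H1f10, a variant linker histone, had between 4 and 9 reads and was not tested. The antisense gene H3f3aos, which overlaps the start of H3f3a, had between 9.45 and 11.0 CPM in the 4 libraries.

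Among the germ cell linker genes H1f6 had the highest level, and the others were low. H1f6, encoding the testis linker histone H1t, had 10.4 and 19.3 CPM in the controls and 27.1 and 27.9 CPM in the Cnot3-cKO. Its log2 fold change of 0.89 ± 0.23 (SE) did not pass in edgeR (adjusted p = 0.0156), though the groups did not overlap. In DESeq2 its adjusted p was 0.00185, but its log2 fold change of 0.88 was under the fold limit. H1f8, the linker histone of oocytes, had 1.56 and 1.05 CPM in the controls and 0.750 and 0.524 CPM in the Cnot3-cKO, with a log2 fold change of -1.04 ± 0.51 (SE, edgeR adjusted p = 0.175). The spermatid proteins that later replace histones were near 0, with sums of 0.839 to 1.26 CPM over Tnp1, Tnp2, Prm1 and Prm2. Hils1 of spermatids had 4 reads in each control and 0 in the Cnot3-cKO libraries, and H1f7 had no read in any library. Counts of 0 allow up to 0.0713 to 0.132 CPM, which covers counting error only.

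**Figure D5:**
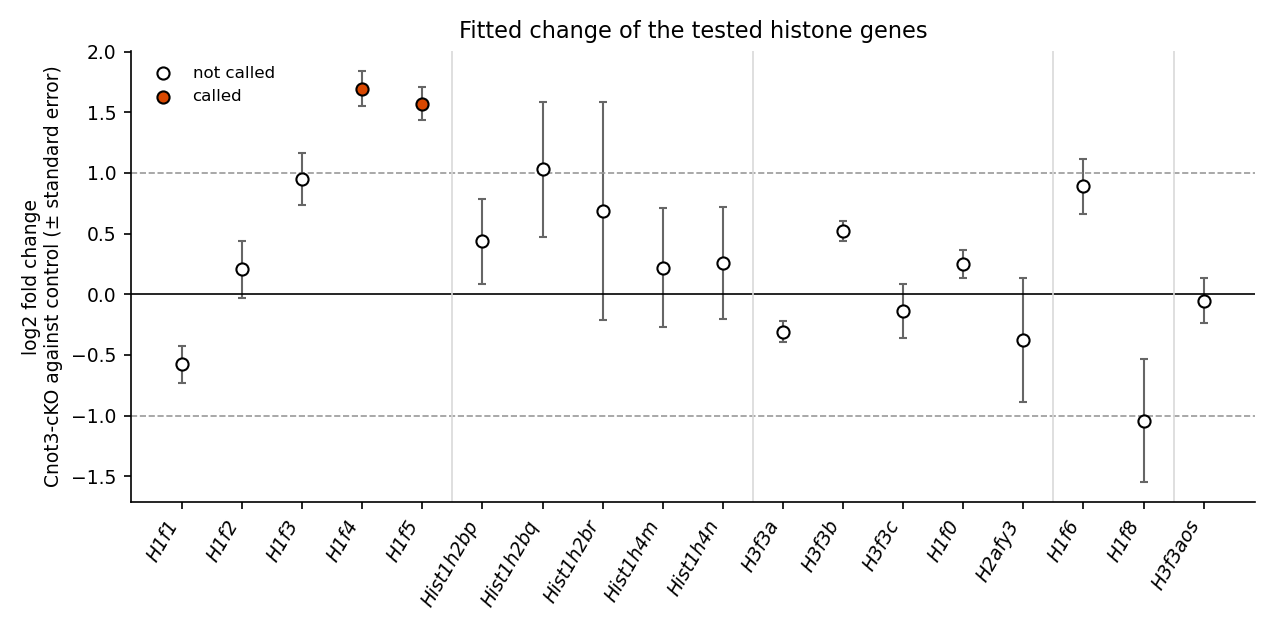
Log2 fold change of the 18 tested members in the Cnot3-cKO against the controls, with its standard error, and filled points for called genes. The dashed lines mark a fold of 2, and only H1f4 (1.69) and H1f5 (1.57) are called.

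By class, 2 of 10 tested replication-dependent members were called higher (20%) and none lower, against 4.03% and 0.735% of all tested genes. None of the 5 tested replacement variants was called in edgeR or DESeq2, and 2 had an unadjusted p below 0.05, which was common among all tested genes. The median log2 fold change was 0.56 for the replication-dependent members and -0.14 for the variants, against 0.01 over all tested genes. Without control replicate 1 both signs turned, to -0.15 and 0.13. The variant median was 0.25 when the processed pseudogenes were left out. The sums gave another order, since H1f1 held most of the replication-dependent reads. They came to 841 and 1359 CPM in the controls and 889 and 976 CPM in the Cnot3-cKO, so that the groups overlapped. The variants summed to 917 and 1048 CPM in the controls and 1189 and 1204 CPM in the Cnot3-cKO. The ratio of replication-dependent to variant reads was 0.916 and 1.30 in the controls and 0.748 and 0.810 in the Cnot3-cKO. Without H1f1, the ratio was 0.134 and 0.212 against 0.226 and 0.294, the opposite order. With 2 libraries a group an exact permutation test cannot go below a two-sided p of 0.333, and no test was made of these ratios.

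The replication-dependent genes outside the rule showed 5 of 36 tested genes called higher and none lower. Their log2 fold changes had a median of 0.50. The H2B gene H2bc21 had the highest, with 0.993 and 0.998 CPM in the controls and 4.24 and 5.38 CPM in the Cnot3-cKO (log2 fold change 2.27, edgeR adjusted p = 3.84e-04). H3c7, an H3 gene, had 1.29 and 2.47 CPM in the controls and 6.09 and 7.30 CPM in the Cnot3-cKO (log2 fold change 1.83). The remaining called genes were H2bc9, H2aw and H2bc6, at 1.80, 1.60 and 1.22. In the controls H2bc9 had only 0.720 and 0.784 CPM and H2aw 1.17 and 0.927 CPM. The M21 model of H2bc6 overlaps that of the called member H1f4 on the same strand, so these calls may not be independent. None of the 11 tested H4 genes was called in edgeR or DESeq2, and 4 had an unadjusted p below 0.05, all of them higher. Such p-values were common among all tested genes. Of the 6 tested variants outside the rule, H2az2 passed the test without the fold limit, with a log2 fold change of -0.51 (edgeR adjusted p = 0.0052), and the median was -0.09. H2ax, the variant with a stem-loop, had -0.39 (edgeR adjusted p = 0.248). The germ cell core genes H2ac1 and H2bc1 had log2 fold changes of -0.01 and -0.17 and were not called. Cenpa, the centromeric H3 variant, lies outside the rule and had -0.22 (edgeR adjusted p = 0.122). No replacement variant was called among the members or among these comparison genes.

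Genes that act on histone mRNAs and proteins were examined as lists. None of the 27 genes of histone mRNA 3′ end formation, transcription and decay was called in edgeR or DESeq2. Of these, 11 had an unadjusted p below 0.05, only 2 of them higher, and the median log2 fold change was -0.10. Such p-values were common among all tested genes, so the count of 11 is not read as particular to this list. Slbp, which encodes the stem-loop binding protein, had 199.5 and 253 CPM in the controls and 255 and 247 CPM in the Cnot3-cKO (log2 fold change 0.15, edgeR adjusted p = 0.363). Npat and Casp8ap2, regulators of histone gene transcription, had log2 fold changes of -0.07 and -0.10, and Lsm10 and Lsm11, of the U7 particle that cuts histone pre-mRNA, 0.07 and 0.00. Eri1, a nuclease of the stem-loop, had -0.24, and the decay factor Upf1 had -0.02. Without the fold limit Tut7, a terminal uridylyltransferase, rose by 0.69 on the log2 scale, while its relative Tut4 fell by 0.42, Smg1 fell by 0.46 and Ncbp2 fell by 0.63.

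None of the 30 histone chaperone genes was called in edgeR or DESeq2. Of these, 14 had an unadjusted p below 0.05, only 2 of them higher, and the median log2 fold change was -0.21. Without the fold limit 4 fell, among them Ubn1 of the HIRA complex that deposits H3.3 (by 0.65 on the log2 scale) and the H3-H4 chaperone Nasp (by 0.34). None of the 37 genes of S phase and replication was called in either tool. Of these, 14 had an unadjusted p below 0.05, 7 of them higher, and the median log2 fold change was -0.03. Since such p-values were common among all tested genes, neither the chaperone count nor this one is read as particular to its list. Without the fold limit Prim1, of the primase, and Ccna2, a cyclin of S phase, rose by 0.61 and 0.42 on the log2 scale, and Rrm2, of the enzyme that makes deoxynucleotides, fell by 0.56. The summed level of this list was 6178 and 7001 CPM in the controls and 6928 and 6673 CPM in the Cnot3-cKO, so that the groups overlapped. Of 10 mitosis genes none was called, and 4 passed as higher without the fold limit, among them Cdc20 (0.80) and Ccnb1 (0.56), with a median of 0.29.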

How the data were processed

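Per the paper's methods and the labels, total RNA of the sorted cells was made into stranded libraries, and the authors filtered reads on quality, used STAR for alignment to mm10 and featureCounts, with a GENCODE annotation, for read counts by gene. The values the authors deposited are whole-number counts per gene symbol, 1 file a library, not normalized. Settings for multi-mapping and strand are not given in the sources used here. From these counts, edgeR 4.0.16 (R 4.3.3) was used with TMM scaling, filterByExpr and the quasi-likelihood test over all 23952 tested genes. No replicate block was used, since over 18005 genes as a whole the libraries numbered 1 did not deviate together (r = 0.0514). This reason does not cover the replication-dependent members, for which replicate 2 was higher in both groups in 10 of 10 tested. A gene was called at an adjusted p below 0.01 and a fold above 2. Totals of 22192964 to 43378493 reads a library set the precision, and the limits given for counts of 0 cover counting error only. Every tested member is named, with called genes, the marker and pathway lists, and those of the comparison lists that passed. Members, classes and lists were chosen with earlier results of these data known. Alternatives were other scalings, filters and thresholds, DESeq2 1.42.0, a replicate block and leaving out each library. Promoters came from RefSeq, GRCm38.p6, and stem-loops from GENCODE M21. The paper's methods name a later GENCODE release for the counts, so the M21 gene models may differ from those the authors counted with.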

Additional observations from a re-analysis of the deposited data

How the results depend on the processing

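H1f4 and H1f5 were called under every alternative run. The replication-dependent count of 2 became 7 without control replicate 2 and 4 without Cnot3-cKO replicate 1, and over single omissions it ran from 2 to 7; with all libraries it was 0 among core genes alone (chosen after seeing the data), of which 4 were called without control replicate 2 and 1 without Cnot3-cKO replicate 1. With no fold limit, 1 variant passed as higher, as did 1 gene of the 3′ end list and 2 of the S-phase list, and 3, 4 and 1 genes of the 3′ end, chaperone and S-phase lists passed as lower; under every other alternative (for the lists, all chosen after seeing the data) these lists had 0 calls. The median log2 fold change of replication-dependent members ran from -0.15 to 1.48 over single omissions, and that of the variants from -0.16 to 0.25; the variant median turned to 0.028 with no filter, 0.087 with a mean count of at least 50 and 0.25 without the processed pseudogenes (also chosen after seeing the data). Summed replication-dependent reads ran from -0.54 to 0.15 on the log2 scale, summed variant reads from 0.19 to 0.38 and the ratio of the classes from -0.74 to -0.23 over single omissions, and summed variant reads gave 0.39 with scaling to the pan-germ list. That scaling moved the median of all genes to 0.11, H3f3aos to 0.048, H1f3 to 1.06 and H1f6 to 1.01, the latter 2 then called; scaling by library size alone gave 0.014 for H3f3aos and 1.02 for H1f3, then called. H3f3aos turned to 0.027 without control replicate 2. Over single omissions the lowest and highest values were -0.22 and 0.78 for H1f2, -0.11 and 1.29 for Hist1h2bp, -0.19 and 2.13 for Hist1h2bq, -0.19 and 3.23 for Hist1h2br, -0.67 and 1.29 for Hist1h4m, -0.45 and 1.65 for Hist1h4n, -0.15 and 0.027 for H3f3aos, -0.62 and 0.20 for H3f3c and -0.84 and 0.15 for H2afy3; the cause was not tested. Where an omission left 1 library in a group, that library was assumed to vary like the other group. With the replicate block, 2 replication-dependent members were called higher and 0 lower, and the block changed no call of a member. The planned count of H2afx with the replication-dependent genes was not run, since the files list that gene under a newer symbol. The H2A members had at most 3 reads in any library and share 67.6% to 93.5% of their 50-base stretches with other genes; the cause of their low counts was not tested.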
